A study of Mus musculus with 4 samples.

Results

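Among the genes nearest to glucocorticoid receptor (GR) peaks in PDGFRa+ adipose progenitors were 28 genes of orphan and adhesion G protein-coupled receptors, with 34 peaks between them. They were chosen by symbol (Gpr or Gprc followed by a digit, or Adgr), leaving out the latrophilins Adgrl1, Adgrl2 and Adgrl3, from the 6081 genes (counted by gene identifier) that the 10402 listed peaks name. The 28 comprise 8 adhesion receptors, 2 orphan receptors of class C, among them Gpr158, and 18 other Gpr genes, of which Gpr137b-ps is a pseudogene. None of the 28 was among the 30 genes of the CD137+ table. That table is limited to genes with an interval in those cells and cannot show that GR was absent from other genes. The receptors are also a small share of genes (28 of 6081 named, 104 of 21887 protein-coding). A table of 30 genes could thus hold none of them, and this says nothing particular about the receptors.

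G protein-coupled receptors cross the membrane in 7 helices and pass ligand binding on to heterotrimeric G proteins, which arrestins, receptor kinases and RGS proteins then restrain. Orphan receptors are those named before a ligand was known, and several have since been given one. Adhesion receptors carry long extracellular regions that bind matrix or other cells. Many are cleaved just outside the membrane, which can lead to the exposure of a tethered agonist. In fat cells, receptors coupled to G proteins that stimulate or inhibit adenylyl cyclase set the rate of lipolysis, and GR acts as a ligand-bound transcription factor.

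The series holds 4 chromatin immunoprecipitation libraries of C57BL/6 adipose progenitors: 1 GR immunoprecipitate and 1 input from CD137+ cells, and the same from CD140+/PDGFRa+ cells. All cells were isolated magnetically from adipose tissue (SAT or VAT in the labels), put through an adipogenic cocktail and given dexamethasone, a synthetic glucocorticoid, at 1 µM. There is no group without dexamethasone, so the peaks are not a response to it measured against untreated cells. No group has a replicate and the read depth is unknown, so no test between cell types was possible. Each peak is assigned to the gene with the nearest start site, a position and not a measure of the gene's expression, and the score of a peak is a deposited whole number with no stated scale. Coordinates are printed as deposited. The stated distance was subtracted from and added to each peak's midpoint, and the results were compared with both ends of the gene in the GRCm38.p6 gene table. The closest match was within 1 kb at 1 of 28 genes. The positions thus do not follow the mm10 build of the submitters' processing notes, and their build is unknown. The labels' extraction protocol speaks of embryonic cells, which does not match the adipose source, and no expression values were used here against which the cell type could be checked.

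The share of receptor genes named by a GR peak was near that of genes in general. Of the 104 protein-coding receptor genes of this family in the gene table, 27 (26.0%, 95% Wilson interval 18.5 to 35.1, counting error only) were named by a peak, against 22.5% of 21887 protein-coding genes. With peaks within 100 kb alone it was 20 of 104 (19.2%), against 19.8%. Adhesion receptors were named in 8 of 24 cases (33.3%), class C orphans in 2 of 8 (25.0%) and other Gpr genes in 17 of 72 (23.6%). Within the adhesion family, subfamily A had 2 of 3 genes with a peak, B 1 of 3, F 2 of 5 and G 1 of 7. The remaining member of subfamily L once the latrophilins are left out, Adgrl4, and the single gene of V, Adgrv1, both had a peak. No gene of subfamily E (Adgre1, Adgre4 and Adgre5), which are known from myeloid and other immune cells, was named by a peak, and neither was the single D gene, Adgrd1. Of the class C genes, Gprc5a, Gprc5b, Gprc5c, Gprc5d and Gprc6a had none.

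**Figure D1:**
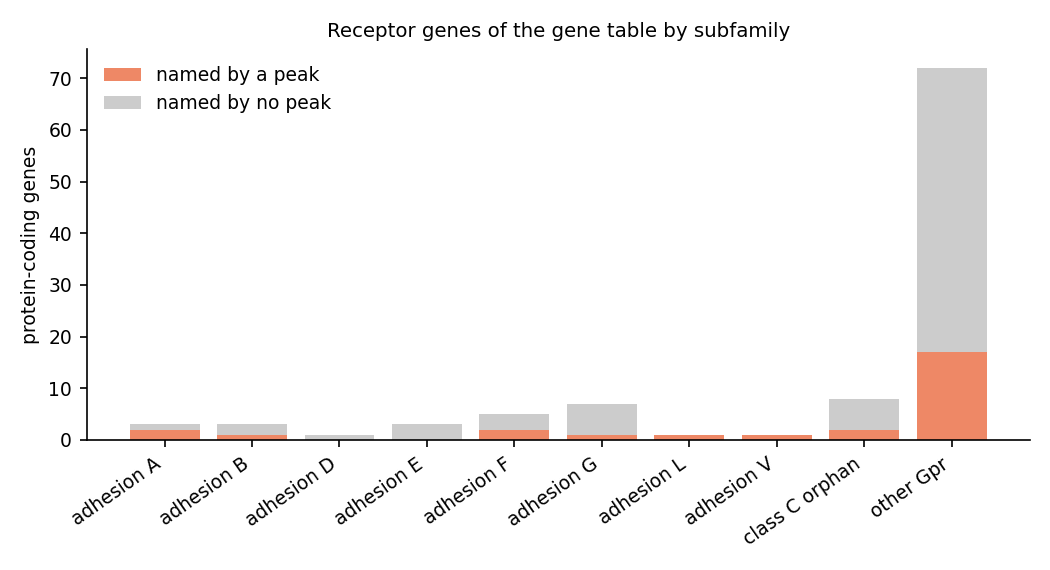
Protein-coding receptor genes in the gene table (y axis, number of genes) by subfamily (x axis), split into those named by a GR peak of the PDGFRa+ list and those named by none. Other Gpr genes hold 17 of the 27 named genes, and adhesion receptors 8.

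Gene length differed between these groups. The adhesion genes had a median length of 72.3 kb and the other receptor genes of 13.3 kb, against 17.2 kb over all protein-coding genes. Among genes over 44.3 kb, 10 of 27 receptor genes had a peak (37.0%), of which 6 were adhesion receptors, against 41.0% of all protein-coding genes of that length. Among genes of up to 5.67 kb, 5 of 23 receptor genes had one (21.7%), against 12.0%. The part of length in the counts was not tested.

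The highest scores stood at Gpr26 and Gpr149, far upstream of the start sites. Gpr26, an orphan receptor found mainly in brain, had peaks with scores of 67 and 33. The stronger lay 105765 bp upstream of the start site in an LTR element, ORR1D2 (chromosome 7, 139052301 to 139052456 as deposited), and 2.95% of the list scored as high or higher. Its weaker neighbour lay 57839 bp upstream in a LINE element, Lx8, so that both were intergenic, in repeats and on the same side of the gene.

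Gpr149, an orphan receptor known from mouse oocytes, had scores of 59 and 33. A LINE element of the young family L1Md_T held the peak with 59 (chromosome 3, 62542252 to 62542421 as deposited), 132974 bp upstream, while the peak with 33 lay outside repeats, 173635 bp upstream. A score of 59 or more was reached by 3.56% of the list. How reads that align to several copies of a repeat were treated is not given in the sources used here.

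Scores of 49 were shared by Adgrv1, Gpr158 and Gpr52, and 20.5% of the list scored 49 or more. Adgrv1 encodes a very large adhesion receptor of the links between stereocilia of inner ear hair cells. It had 2 peaks with the same score, one intergenic and 6925 bp upstream of the start site (chromosome 13, 81778996 to 81779141 as deposited), the other 172269 bp downstream of it in intron 58 of 89, in a SINE of family B4. Gpr158, a class C receptor that recruits the regulator RGS7 to the membrane, had a peak with 49 in intron 1 of 10, 29084 bp from the start site (chromosome 2, 21318201 to 21318355 as deposited), in the DNA transposon Arthur1B. A further Gpr158 peak with a score of 33 lay 51267 bp upstream in AT-rich low complexity sequence.

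Gpr52, an orphan receptor of the striatum that raises cyclic AMP, had a single peak with 49 (chromosome 1, 162597674 to 162597819 as deposited). It lay 89862 bp upstream of Gpr52 in intron 11 of 20 of Rabgap1l, outside repeats. In total 5 of the 28 genes reached 49 or more (5 of 104 protein-coding receptor genes, 4.81%, against 6.16% of all protein-coding genes), and 2 (1.92%) reached 50, against 2.60%.

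**Figure D2:**
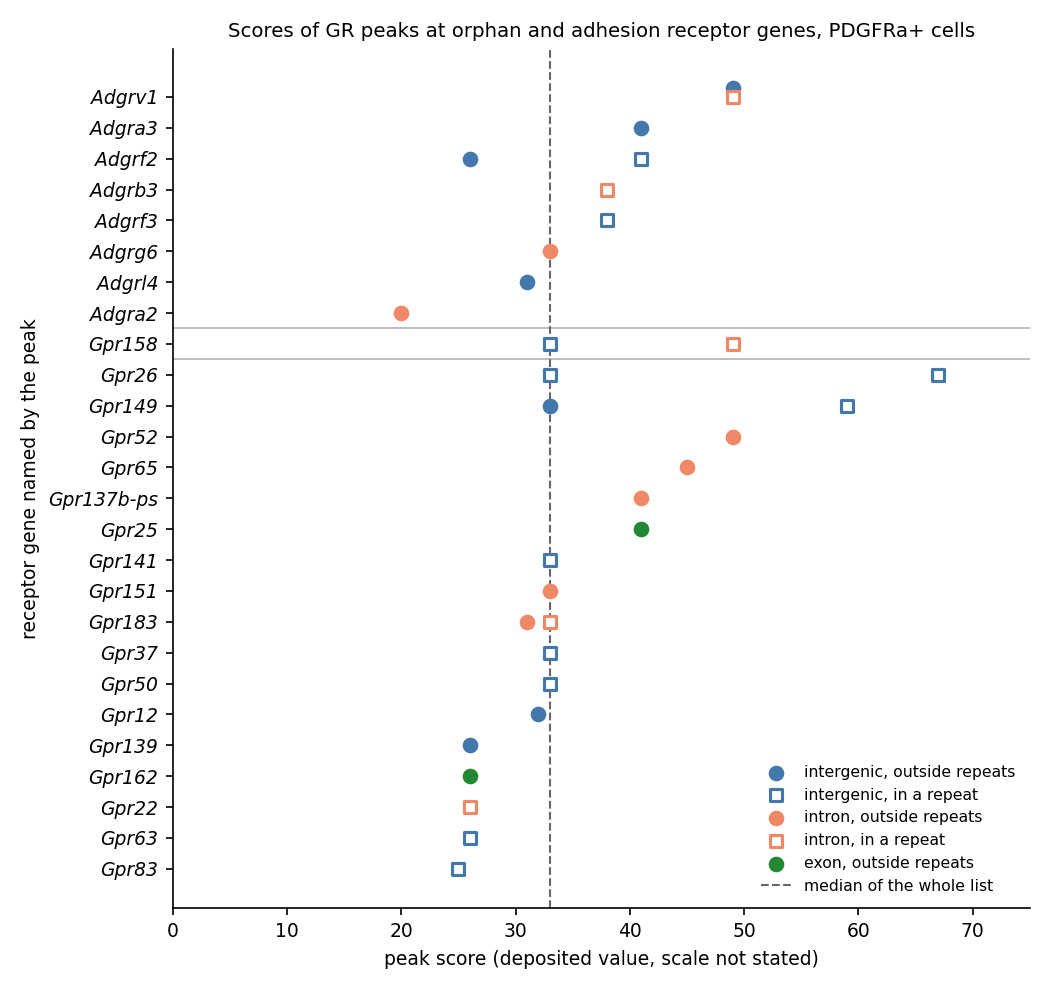
Deposited peak score (x axis, scale not stated) of 32 of the 34 peaks, at 26 receptor genes (y axis), with adhesion receptors at the top, a class C orphan in the middle and other Gpr genes below. Filled circles lie outside repeats and open squares in repeats; the peaks at 67 and 59, at Gpr26 and Gpr149, are open squares, the dashed line marks the list median of 33, and the equal Adgrv1 peaks are drawn apart.

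Near the start site, peaks stood at 3 receptor genes: Gpr25, Gpr65 and Gpr162. Gpr25, a receptor gene with a single exon, had a peak with a score of 41 inside that exon, 531 bp downstream of the start site (chromosome 1, 138156847 to 138156992 as deposited). Gpr65 encodes a receptor that senses extracellular acid and is known in mouse lymphocytes as a gene induced by glucocorticoids. Its peak had a score of 45 and lay in the only intron, 1416 bp downstream of the start site (chromosome 12, 99508185 to 99508337 as deposited). Gpr162, an orphan receptor gene, had a peak with a score of 26 in exon 3 of 6, 2479 bp from the start site (chromosome 6, 124811450 to 124811595 as deposited). All 3 peaks were downstream of the start site, inside the receptor gene and outside repeats. Such near peaks, within 3 kb, made up 8.82% of the receptor peaks (3.05 to 23.0) and 8.83% of the list, and 3 of 104 receptor genes (2.88%) had such a peak, against 3.39% of protein-coding genes. Adgra2 lay just past this distance, with a peak 3269 bp into the gene in intron 1 of 18. Its score of 20 is the lowest of the list, shared by 100 peaks. Adgra2 encodes the adhesion receptor that, with Reck, passes on Wnt7 signals in brain vessels. No receptor peak was annotated to a promoter, a UTR or a transcription end site. These classes are rare in the list too, at 2.50%, 1.17% and 1.08%. Each share lies inside the interval of the receptor peaks (0 to 10.2%).

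The promoters of the receptor genes were searched for the GR recognition hexamer AGAACA, which reads TGTTCT on the other strand, and for its inverted repeat with a spacer of 3 bases, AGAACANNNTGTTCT, which contains both. RefSeq promoter windows of GRCm38.p6 ran from 250 bases before to 50 after the start site. Windows of 16 of the 28 genes were searched, 19 in all, and the promoters of the other genes were not searched. The windows of Gpr25 and Gpr65 are shown because their peaks lay nearest to a start site, and that of Gpr141 because it was the 1 window of the 19 with a match. Each line is 5′ to 3′ on the gene's strand, and capitals mark the hexamer:
Gpr25 promoter (chr1:136260877-136261176, minus strand): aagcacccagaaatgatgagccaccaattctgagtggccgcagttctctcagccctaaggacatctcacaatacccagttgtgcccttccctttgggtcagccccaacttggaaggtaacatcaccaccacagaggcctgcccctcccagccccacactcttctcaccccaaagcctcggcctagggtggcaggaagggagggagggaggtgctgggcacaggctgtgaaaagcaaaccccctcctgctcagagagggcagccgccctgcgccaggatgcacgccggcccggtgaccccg
Gpr65 promoter (chr12:98268385-98268684, plus strand): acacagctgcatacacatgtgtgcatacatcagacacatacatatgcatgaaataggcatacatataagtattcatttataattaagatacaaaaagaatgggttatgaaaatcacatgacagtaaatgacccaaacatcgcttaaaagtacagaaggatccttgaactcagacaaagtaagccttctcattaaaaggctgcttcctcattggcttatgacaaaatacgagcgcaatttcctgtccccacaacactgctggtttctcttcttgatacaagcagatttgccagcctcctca
Gpr141 promoter (chr13:19824208-19824507, minus strand): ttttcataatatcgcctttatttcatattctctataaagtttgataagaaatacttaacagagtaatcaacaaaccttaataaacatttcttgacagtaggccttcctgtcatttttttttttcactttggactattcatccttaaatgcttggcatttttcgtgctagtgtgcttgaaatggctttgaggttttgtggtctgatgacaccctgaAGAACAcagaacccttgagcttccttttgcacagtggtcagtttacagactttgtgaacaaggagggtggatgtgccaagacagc

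In the Gpr25 and Gpr65 windows neither the hexamer nor the inverted repeat was found. Both peaks lay downstream of the windows, so the letters say nothing of the sequence under the peaks, which was not analysed here. Gpr141, an orphan receptor gene, held AGAACA 35 bases upstream of the start site, while its peak lay 28035 bp upstream in a LINE element with a score of 33. The hexamer was found in 1 of 19 receptor windows (5.26%) and in 19.0% of all 32851 windows, and the inverted repeat in none of the 19 and in 0.00913% of all. The 19 leave out any receptor window on chromosome 18 and the receptor genes without a window, so these shares may not be like for like. The difference was not tested.

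Gpr83, cloned from mouse T cells as a glucocorticoid-induced receptor, had a peak in a LINE element, L1MA4A, at 18938 bp upstream, with a score of 25. At least as high a score was held by 98.2% of the list. The receptors Gpr3 and Gpr6, relatives of Gpr12 that raise cyclic AMP without a ligand, were named by no peak. Gpr12 itself had a score of 32, 94274 bp upstream.

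Gpr183, the receptor for oxysterols that guides B cells, had a pair of peaks on either side of its start site. The scores were 33 at 13591 bp upstream and 31 at 14323 bp downstream, both in introns of the surrounding gene Ubac2 and 27722 bp apart. Adgrf2, an adhesion receptor with no ligand assigned, had the closest pair, with 750 bp between a peak of 41 in the LTR element RLTR11A and a peak of 26 outside repeats, at 8701 and 9663 bp upstream. The other pairs were 40503 bp apart at Gpr149, 47775 bp at Gpr26, 80148 bp at Gpr158 and 179048 bp at Adgrv1. Scores within a pair differed by 0 at Adgrv1, by 2 at Gpr183 and by 34 at Gpr26. No receptor gene had more than 2 peaks, and 22 of 28 had 1 (78.6%), against 65.6% of all named genes. Of the 104 protein-coding receptor genes 5.77% had 2 or more, against 7.40% of all protein-coding genes. The latrophilins, left out by the rule, had 1 peak at Adgrl1, 6 at Adgrl2 and 12 at Adgrl3, with highest scores of 33, 67 and 82.

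The remaining adhesion receptors had 1 peak each. Adgra3, linked to planar cell polarity, had a score of 41 in intergenic sequence 167420 bp downstream of the start site. Adgrb3, a synaptic receptor for C1q-like proteins, had 38 in intron 2 of 30, in GA-rich low complexity sequence, and Adgrf3 had 38 in a SINE 16717 bp downstream of the start site. Adgrg6, required in mice for myelination by Schwann cells and a receptor for collagen IV, had 33 in intron 4 of 24, outside repeats. Adgrl4, a receptor of endothelial cells, had 31 in intergenic sequence 168052 bp upstream. Adhesion peaks had a median score of 38 over 10 peaks, and the 21 peaks of other Gpr genes a median of 33.

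Among the other orphans, the pseudogene Gpr137b-ps had a score of 41. It has a close relative in Gpr137b, so reads of the 2 may not be separable, and its peak lay in intron 2 of 6. Gpr37, a receptor of oligodendrocytes, Gpr50, a relative of the melatonin receptors, and Gpr151, a receptor of the habenula, had scores of 33. Scores of 26 were held by Gpr22, in an intron of Cog5, by Gpr63 in a LINE element and by Gpr139, a brain receptor for aromatic amino acids. Thus 14 of the 28 genes had no score above 33, against 40.3% of all named genes.

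**Figure D3:**
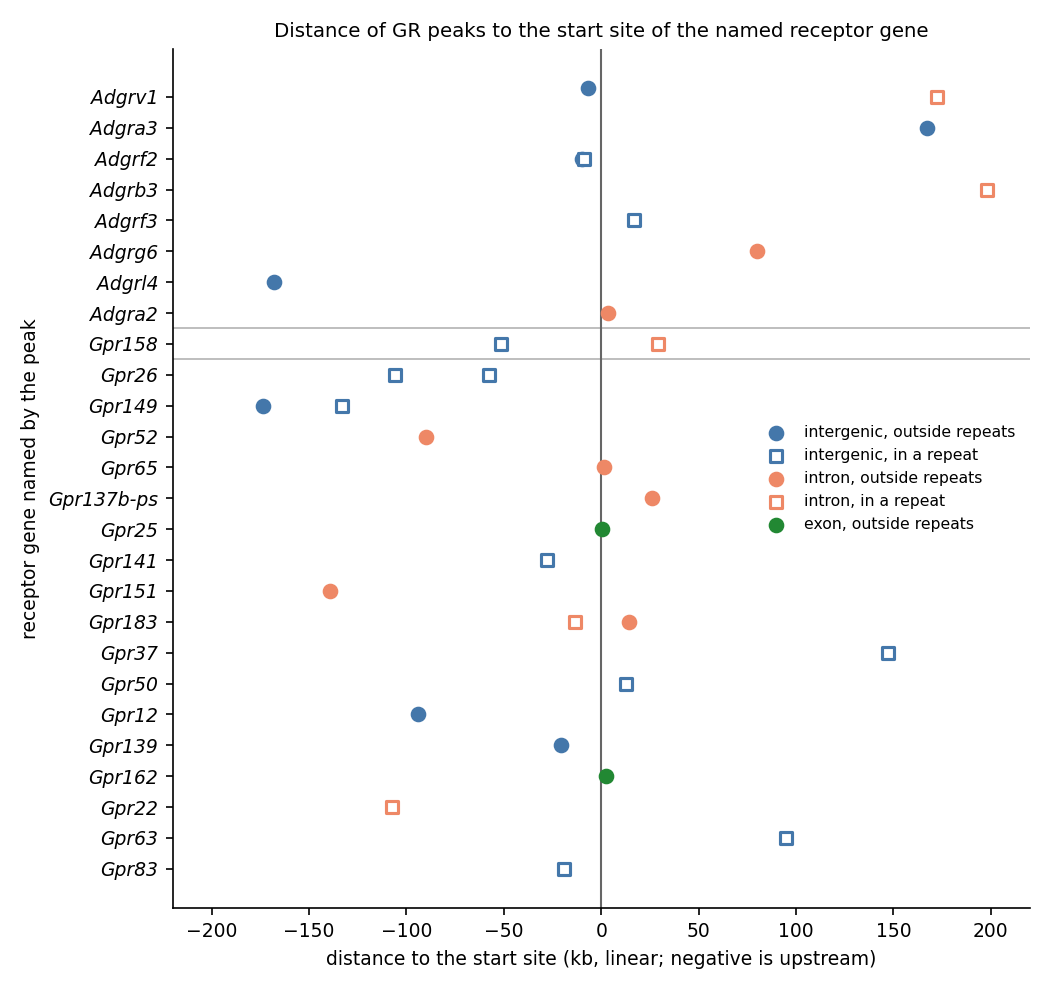
Distance of the same 32 peaks to the start site of the receptor gene each names (x axis, kb, linear, negative upstream), by gene (y axis) with the colours and symbols of the score plot. Peaks at Gpr25, Gpr65 and Gpr162 sit within 3 kb of 0, and those at Adgrb3, Gpr149, Adgrv1 and Adgrl4 lie farthest out.

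The 34 peaks were also set beside the whole list by their position and sequence class. Intergenic sequence held 52.9% of them (36.7 to 68.5), against 56.3% of the list, and introns 41.2% (26.4 to 57.8), against 37.3%. Exons held 2 of 34 (5.88%, 1.63 to 19.1), against 1.26%. Repeat elements held 17 of 34 (interval 34.1 to 65.9%), against 38.1%, with 7 in LINE, 5 in LTR, 2 in SINE, 1 in DNA and 2 in low complexity sequence. In the list, low complexity sequence held 0.500%. For 11 of the 28 genes every peak lay in a repeat, against 27.0% of all named genes; this difference was not tested. With peaks outside repeats alone, 16 of 104 protein-coding receptor genes (15.4%) had a peak, against 16.3% of all protein-coding genes. The list's share was outside the interval of the receptor peaks in 2 of the 25 features compared, exons and low complexity sequence, each resting on 2 peaks. The median score was 33 in both. The receptor peaks ran from 20 to 67, and the list from 20 to 43344. Taking the strongest peak of each gene, the median was 33 over the 27 protein-coding receptor genes and 41 over the 4927 protein-coding genes with a peak. Receptor peaks lay a median of 32362 bp from the start site, against 47254.5 bp in the list. The 5 most frequent scores of the list were 33, 41, 49, 26 and 25, at 2671, 2164, 1205, 1169 and 439 of its 10402 peaks. They held 24 of the 34 receptor peaks. Equal scores at different genes are thus common in the whole list and not particular to the receptors.

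**Figure D4:**
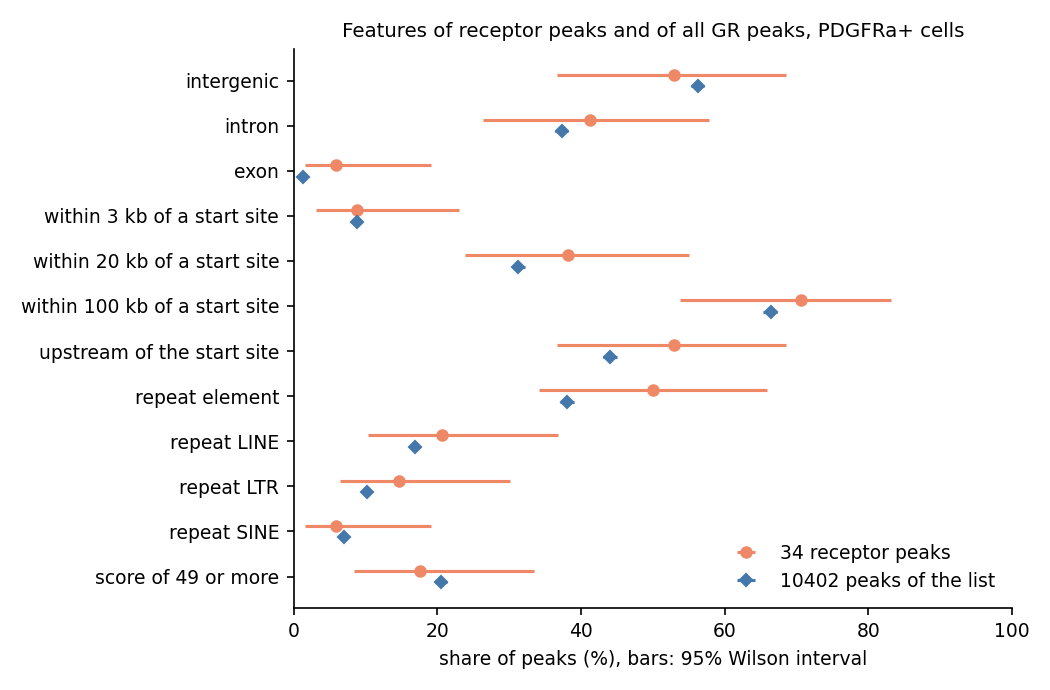
Share of peaks (x axis, %) with each feature (y axis) among the 34 receptor peaks (circles) and the 10402 peaks of the whole list (diamonds), with 95% Wilson intervals for counting error. For the features drawn, the list lies inside the receptor interval except for exons, at 1.26% against 1.63 to 19.1%.

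Of the receptor peaks, 10 (29.4%) lay inside the receptor gene they name, against 30.6% of the list. Inside another gene, among them Ubac2, Cog5 and Rabgap1l, lay 5 (14.7%), against 12.8%. The peak named for Gpr151 lay in a transcript with no gene in the table used, and the remaining 18 were intergenic. Conversely, 5 peaks inside a receptor gene were named for a neighbour and are not counted above. Adgrb3 held peaks with scores of 41 and 21 in introns 16 and 14 of 30, both named for Gm20172 and both in LINE elements. Adgrv1 held peaks of 41 and 32 in introns 89 and 83 of 89, named for 9330111N05Rik. Gpr4, an acid sensor of endothelial cells, held a peak of 49 in the 3′ UTR of its exon 2 of 2, named for Opa3. Counting these, Adgrb3 and Adgrv1 each held 3 peaks within the gene.

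Partners of the receptors were named by peaks in varying shares, against 22.5% of all protein-coding genes, whose median strongest score was 41. The lists are short and were not matched for gene length. Among all protein-coding genes, 12.0% of those up to 5.67 kb and 41.0% of those over 44.3 kb were named. Peaks at any distance counted, such as that of Gnaz at 469806 bp. The part of length and distance in these shares was not tested. The G protein subunit list had a peak in 10 of 23 genes (43.5%, median strongest score 36.5). Gnb5 had 49 in an LTR element 9095 bp upstream of its start site, in an intron whose gene is not given here. Gna14 had 3 peaks up to 41. Gnaq, the subunit that activates phospholipase C, had 33 at 10928 bp upstream. RGS proteins, which speed the hydrolysis of GTP by G proteins, had a peak in 8 of 21 genes (38.1%, median 45). Rgs10 had 58 in an intron, Rgs3 57, and Rgs6, of the same subfamily as the Gpr158 partner RGS7, had 4 peaks up to 49. Receptor kinases and arrestins had a peak in 1 of 8 genes (12.5%), Grk2, with a score of 26.

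Ligands and partners of adhesion receptors had a peak in 9 of 21 genes (42.9%, median 41). Flrt3, Flrt2 and Flrt1, which bind latrophilins, had 7, 5 and 1 peaks with highest scores of 57, 58 and 41, and Lama2, the laminin chain of the Adgrg6 ligand, had 41 in an intron. Receptors with an assigned ligand that are known in adipose tissue were named in 8 of 23 cases (34.8%, median 41). The succinate receptor gene Sucnr1 had 67 at 70395 bp downstream of its start site, and the fatty acid receptor gene Ffar4 had 33 at 7286 bp upstream. Hcar1 and Hcar2 had none. None of the 10 macrophage markers, which include Adgre1 (F4/80), was named by a peak. Endothelial markers were named in 4 of 10 cases (median 29.5): Pecam1, Tie1, Emcn and the receptor Adgrl4, with strongest scores of 26, 28, 33 and 31. Peaks are not a measure of how many cells of a type were present, and the part of other cell types in the results was not tested.

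**Figure D5:**
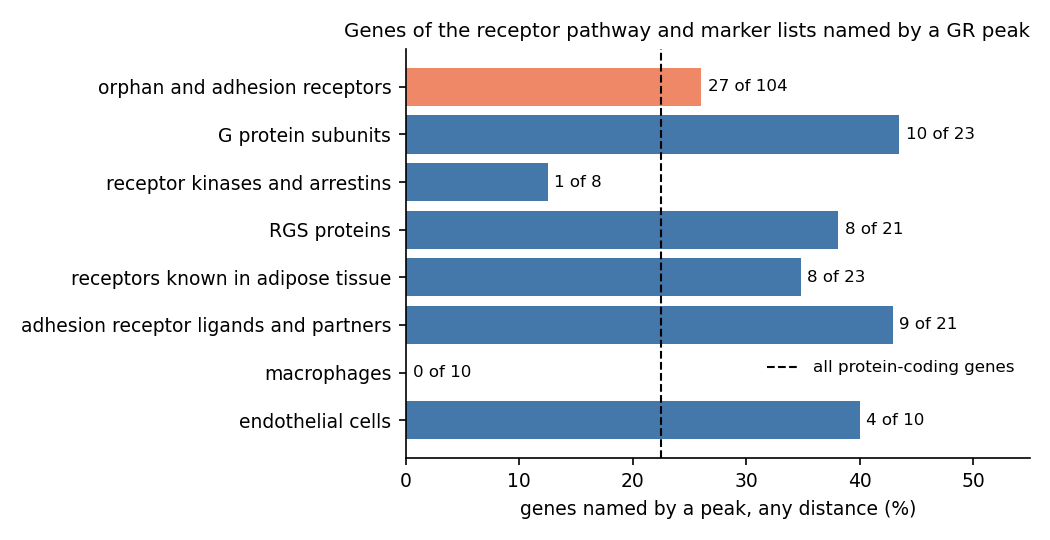
Share of genes named by a GR peak at any distance (x axis, %) for the receptor family and 7 lists of partner and marker genes (y axis), with the count at each bar. The dashed line marks all protein-coding genes (22.5%); the receptor family stands at 26.0% and the G protein subunits at 43.5%.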

How the data were processed

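GR peaks of PDGFRa+ cells and a gene table of CD137+ cells were deposited, from 1 immunoprecipitate each. Per the submitters' processing notes, the tools were Bowtie2, SAMtools, MACS2, FastQC and bedtools 2.17.0 and the build mm10; roles and settings are not listed. Per the file headers, the deposited peak score is 1 value per peak, with no stated scale, and the deposited signal of the CD137+ table is a peak value per gene in an unstated unit. Depth, calling thresholds and the use of inputs are unknown here.

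Genes were matched to the GRCm38.p6 gene table by identifier (28 of 28). A gene counted when a peak named it as nearest. Wilson intervals (95%) came from SciPy 1.17.1 in Python 3.11.15, and cover counting error only. Counting was checked on simulated tables. No test was run, since each cell type has 1 library and the members and lists were chosen with earlier results of these data known. Of the 28 members 26 are named, and 2 are counted but not reported here one by one; those with a score of 49 or more, 3 or more peaks, or a peak within 3 kb or in a promoter, exon, UTR or transcription end site are given peak by peak. Class C was assigned to Gpr genes from textbook knowledge. Protein sequences had been planned and were not used here. Alternatives covered score, distance, repeats, chromosomes, name matching, 1 peak per gene and 1 kb.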

Additional observations from a re-analysis of the deposited data

How the results depend on the processing

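Over 9 settings, 41 values were recomputed. Of these, 28 stayed within the 95% interval of the reported value or, for counts, within 1.5 times of it, and 13 moved. Changes of direction were not scored. With scores of 50 or more, 2 genes and 2 peaks were left (Gpr26 and Gpr149), 100% intergenic, 0% within 3 kb, with a median score of 63, and 1.92% of the receptor family had a peak, against 2.60% of all protein-coding genes. Without peaks in any repeat, 17 genes and 17 peaks were left and 15.4% of the family had one, against 16.3% of all protein-coding genes. Both settings leave fewer peaks by construction. Matching by synonym as well gave 43 genes and 66 peaks, but the family then holds 163 genes in place of 104 and the share with a peak was 25.8%, against 26.0% as reported. With 1 kb as the limit, 2.94% of the peaks counted as near, against 4.35% of the list. With peaks within 3 kb, 2.88% of the family had one, against 3.39% of all protein-coding genes. A tighter limit can only lower these shares or leave them equal. Restriction to peaks within 100 kb gave 21 genes and 24 peaks. No paired analysis was possible because each group has 1 sample. Depth is unknown, so a gene with no peak is not shown to lack GR.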

Other observations

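Genes with a Gpr or Gprc synonym and another current symbol are outside the 28 genes. Matching by synonym added 15 genes. Their highest score was 67, at Sucnr1, which like Ffar4 is given above among the receptors with an assigned ligand. P2ry14, a receptor for UDP-sugars, had a peak at 1364 bp from its start site, with a score of 33. Prlhr, the receptor for prolactin-releasing peptide, and Npbwr1, a neuropeptide receptor, had highest scores of 49, at 18432 bp and, for the nearer of 2 Npbwr1 peaks, 36895 bp. Npsr1, the neuropeptide S receptor, had 4 peaks up to 41. The metabotropic glutamate receptor genes Grm7, Grm3 and Grm8 had 11, 3 and 1 peaks, with highest scores of 49, 48 and 33. Wls, which carries Wnt proteins to the cell surface, had 49.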
